A study of Mus musculus with 8 samples.

Results

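The 6 genes described here, *Trib3*, *Chac1*, *Sesn2*, *Ddit4*, *Gdf15* and *Fgf21*, encode effectors of the integrated stress response and the stress hormones that leave the cell with it. They were chosen by name from the deposited RNA-Seq comparison of *Hdac3* knockout (KO) and empty vector (EV) MCECs, with their difference in that comparison already known. All 6 names were found among the 8278 genes that the deposited table lists. MCECs are an established cell line, derived from mouse cardiac endothelium. The EV group, whose genotype is labelled CTL, had been transduced with an empty vector lentivirus, and the *Hdac3* KO group with a lentivirus carrying *Hdac3* sgRNA for Crispr/Cas9 editing. Both groups therefore shared the line and a viral transduction, there were 4 libraries in each, and no time after transduction was given in the sources used here. The comparison shows which genes differ between *Hdac3* KO and EV cells of a cardiac endothelial line. *Hdac3* encodes a histone deacetylase. The sources used here do not say whether the KO cells are a clone or a pool. Loss of *Hdac3* and a difference between the derived lines therefore cannot be told apart.

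The integrated stress response starts when a stress-sensing kinase phosphorylates the translation initiation factor eIF2. Bulk protein synthesis then slows, while translation of the transcription factor ATF4 rises. ATF4 and its partners, CHOP and the C/EBP proteins among them, turn on genes of amino acid supply and a set of feedback effectors. *Trib3* encodes a pseudokinase that binds AKT and ATF4, *Chac1* an enzyme that degrades glutathione, and *Sesn2* and *Ddit4* inhibitors of the growth kinase complex mTORC1. *Gdf15* and *Fgf21* encode circulating hormones that act on appetite and on metabolism in other organs.

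ATF4 binds, together with a C/EBP protein, a composite element known as the C/EBP-ATF response element (CARE), written here as TGATGCAA on either strand. RefSeq promoters of build GRCm38.p6, which is the mm10 build of the deposited table, were matched to all 6 genes. Each promoter window runs from 250 bases before to 50 bases after the annotated start, and *Gdf15* has 2 such windows. The exact letters stood in the windows of *Chac1* and *Fgf21*, as TTGCATCA on the gene's strand, with the first base at -193 in *Chac1* and at -139 in *Fgf21*. Of 32851 promoters in the RefSeq table, 0.895% held these letters, and of 6131 listed genes with a promoter, 0.864% did. With any base in the sixth place, TGATGNAA, which includes the exact form, a match also stood in *Trib3* at 15 bases past the start, and 3.97% of promoters and 2.69% of listed genes hold that form. The RefSeq start of *Trib3* lies before the start of the deposited table, so that this match lies outside the gene as the table places it. The windows of *Sesn2*, *Ddit4* and *Gdf15* did not hold either form, which says only that the letters are not in these windows. The 250 bases before the start of both promoters with the exact letters are shown because they place the match beside the other promoter elements, with the CARE letters in capitals, on the gene's strand. The windows span chr2:119350992-119351241 on the plus strand for *Chac1* and chr7:45615491-45615740 on the minus strand for *Fgf21*:
Chac1: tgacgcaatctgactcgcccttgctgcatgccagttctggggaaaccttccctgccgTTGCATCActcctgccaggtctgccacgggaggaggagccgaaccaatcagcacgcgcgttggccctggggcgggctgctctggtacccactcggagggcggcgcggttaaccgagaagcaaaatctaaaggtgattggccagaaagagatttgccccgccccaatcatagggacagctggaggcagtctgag
Fgf21: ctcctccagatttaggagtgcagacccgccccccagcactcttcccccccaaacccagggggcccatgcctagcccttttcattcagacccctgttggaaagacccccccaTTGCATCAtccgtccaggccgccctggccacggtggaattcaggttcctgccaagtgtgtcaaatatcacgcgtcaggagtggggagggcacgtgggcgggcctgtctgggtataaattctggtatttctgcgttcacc

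The *Fgf21* window also held a TATA box (TATAAA, first base at -28) and an E-box (CACGTG, at -50). The *Chac1* window held 3 CCAAT boxes (CCAAT or ATTGG, at -150, -59 and -32). Those letters are common in promoters, with 13.6% holding TATAAA, 7.15% CACGTG and 37.4% CCAAT on either strand. CCAAT was also found in the windows of *Sesn2*, *Ddit4* and *Gdf15*, and CACGTG in 1 of the *Gdf15* windows. The full cyclic AMP response element TGACGTCA, which 3.69% of listed genes held, was in none of the 7 member windows.

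The matches of the members can be set beside those of other known ATF4 genes of the table. Of 25 amino acid genes with a promoter, 8 held the exact letters (*Pycr1*, *Got1*, *Slc7a11*, *Slc1a4*, *Tars*, *Iars* and *Yars* among them), as did *Atf3*, *Nupr1* and *Jdp2* of 13 ATF4 partner factors and *Vldlr* and *Herpud1* of 14 other genes activated by ATF4 or CHOP. The sites below are 30 bases each on the gene's strand, CARE letters in capitals. They show the same core in promoters that otherwise differ, 2 copies of it in *Slc7a11*, and the altered base of the *Trib3* match:
Chac1, chr2:119351038-119351067: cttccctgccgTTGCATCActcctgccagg
Fgf21, chr7:45615611-45615640: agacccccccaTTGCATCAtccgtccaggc
Trib3, chr2:152344028-152344057: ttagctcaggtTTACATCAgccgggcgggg
Atf3, chr1:191183425-191183454: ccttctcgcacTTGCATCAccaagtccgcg
Slc7a11, chr3:50443661-50443690: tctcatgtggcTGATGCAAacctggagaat
Slc7a11, chr3:50443642-50443671: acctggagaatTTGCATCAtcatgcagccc

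Among all 53 listed genes with the exact letters, 34 were higher and 18 lower in *Hdac3* KO MCECs. Without the members and the genes of the pathway lists used here, 37 such genes remained, of which 18 were higher and 18 lower. Over the 6078 listed genes without the letters, 47.6% were higher and 48.9% lower.

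*Hdac3* itself, the targeted gene, had 1934, 2067, 2055 and 2137 normalized counts in the EV libraries and 1551, 1458, 1489 and 1524 in the *Hdac3* KO libraries. Normalized counts are reads of a gene divided by the relative size of its library. All KO libraries were below all EV libraries (log2 fold change -0.45, SE 0.035, edgeR adjusted p = 1.04e-13). Whether the reads cover the edited part of the transcript was not tested. Library totals were 15775327 to 21262575 reads in EV and 19356714 to 22255684 in *Hdac3* KO MCECs. The labelled cell type was checked against its markers: of 15 endothelial markers 6 were in the table, and summed to 118 to 121 FPKM in EV and 90.2 to 92.7 in *Hdac3* KO libraries. FPKM are reads scaled by gene length and by the total of the library. *Pecam1*, a defining marker, was near 0 with means of 0.52 and 3.97 normalized counts, and *Kdr*, *Tek* and *Flt1* had EV means of 0.39, 0.78 and 2.67 FPKM. *Cd34* and *Eng* were abundant. All of these but *Pecam1* were lower in *Hdac3* KO MCECs, with log2 fold changes from -1.41 in *Tek* to -0.16 in *Eng*. Of 6 fibroblast markers 3 were in the table, with sums of 717 to 738 FPKM in EV and 534 to 550 in *Hdac3* KO libraries, but *Col1a1* was higher in KO MCECs (373 and 404 FPKM) while *Dcn* (351 and 139) and *Pdgfra* (2.14 and 0.74) were lower. Of smooth muscle and pericyte markers 2 of 6 were listed (11.8 to 15.3 FPKM in EV and 2.68 to 3.32 in KO libraries), of leukocyte markers 1 of 5 (*Cd68*, 5.36 to 5.89 and 11.1 to 12.5 FPKM) and of cardiomyocyte markers 0 of 8. The part of these differences in the results below was not tested. The table holds only genes past a threshold set by the authors, so a marker that is not listed may still be expressed.

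All 6 members were higher in *Hdac3* KO than in EV MCECs, with no overlap between the groups in any of them. The rise in the mean ranged from 2.00-fold in *Chac1* to 4.23-fold in *Gdf15*. They were chosen on this contrast, so that these values are a description and no test is attached to them. For scale, 47.1% of all listed genes passed an edgeR adjusted p-value cut-off of 0.01 as higher in *Hdac3* KO MCECs and 49.6% as lower, and 4.43% were higher with a log2 fold change over 1. Scaling by library totals alone left 2671 genes higher and 4120 lower in place of 3895 and 4107. In 44.4% of listed genes all 4 KO libraries were above all 4 EV libraries. The median log2 fold change over all listed genes was 0.06. Because bulk RNA was measured, more cells that express a gene and more RNA per cell cannot be told apart.

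*Trib3*, the pseudokinase gene, lies at chr2:152337422-152344032 on the minus strand and has 4 exons in its first annotated transcript. It had 594, 692, 639 and 724 normalized counts in EV libraries and 2653, 2523, 2578 and 2665 in *Hdac3* KO libraries. The lowest KO library stood 1799 normalized counts above the highest EV library. The means were 662 ± 57.4 and 2605 ± 66.6 (SD, n = 4), a 3.93-fold rise with a log2 fold change of 1.97 (SE 0.043). Only 115 listed genes, or 1.39%, had a higher log2 fold change. The EV libraries varied more than the counting of reads gives, with a coefficient of variation of 8.67% against 3.95%. Without any 1 library the log2 fold change stayed between 1.92 and 2.02.

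*Chac1*, the gene of the glutathione-degrading enzyme, lies on the plus strand of the same chromosome at chr2:119351229-119354381, with 3 exons. Its normalized counts were 1025, 979, 999 and 957 in EV libraries and 1919, 2034, 1979 and 2007 in *Hdac3* KO libraries. The KO libraries all stood at least 893 normalized counts above the EV libraries, and both groups were narrow. The means of 990 ± 29.1 and 1985 ± 49.5 (SD, n = 4) gave a log2 fold change of 1.01 (SE 0.036), the lowest among the 6 members. The coefficients of variation were 2.94% in EV and 2.50% in KO libraries, beside 3.24% and 2.19% from counting alone. *Chac1* was among the 6 the one whose log2 fold change lay at 1, and it fell to 0.89 when libraries were scaled by their totals alone.

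*Sesn2*, which encodes a leucine-sensing inhibitor of mTORC1, lies at chr4:132492032-132510501 on the minus strand and has 10 exons. The EV libraries had 467, 493, 481 and 483 normalized counts, and the *Hdac3* KO libraries 1124, 1161, 1158 and 1166. The coefficients of variation of 2.26% and 1.67% were below the 4.65% and 2.88% that counting alone gives, and the groups were far apart. The mean rose from 481 ± 10.9 to 1152 ± 19.2 (SD, n = 4), or 2.40-fold, with a log2 fold change of 1.26 (SE 0.044).

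*Ddit4*, also known as REDD1, encodes an inhibitor that acts on mTORC1 through the TSC complex. It lies at chr10:59949675-59951770 on the minus strand, with 3 exons. The normalized counts were 369, 376, 376 and 406 in EV and 991, 917, 929 and 840 in *Hdac3* KO libraries. KO replicate 4 was the lowest of its group and still 434 above the highest EV library. The means were 382 ± 16.6 and 919 ± 61.9 (SD, n = 4), and the log2 fold change of 1.26 (SE 0.055) was the same to 2 decimals as that of *Sesn2*.

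*Gdf15*, the gene of the hormone that acts through the brainstem receptor GFRAL, lies at chr8:70629393-70632456 on the minus strand, with 2 exons. It was read by 14, 12, 18 and 27 reads in EV libraries and by 76, 101, 52 and 92 in *Hdac3* KO libraries. Scaled to library size these were 16.5, 13.3, 18.7 and 23.8 normalized counts in EV and 79.6, 92.0, 48.7 and 85.9 in KO libraries. KO replicate 3 was the lowest of its group, and the 95% exact Poisson interval of its 52 reads, 38.8 to 68.2, lay below that of the 101 reads of KO replicate 2, 82.3 to 122.7. Such intervals cover counting error only, and the lowest KO library remained above the highest EV library. The means of 18.1 ± 4.44 and 76.5 ± 19.2 (SD, n = 4) gave the highest log2 fold change of the members, 2.05, with the widest standard error, 0.22. It was 1.93 to 2.23 when any 1 library was left out.

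*Fgf21*, a fibroblast growth factor that acts as a hormone through FGFR1 and β-Klotho, lies at chr7:45613907-45615490 on the minus strand, with 3 exons. The reads numbered 26, 19, 27 and 18 in EV libraries and 71, 83, 86 and 74 in *Hdac3* KO libraries. As normalized counts they were 30.7, 21.0, 28.1 and 15.9 in EV and 74.4, 75.6, 80.6 and 69.1 in KO libraries. The KO libraries were close together, with a coefficient of variation of 6.33% against 11.3% from counting alone, and that of the EV libraries was 28.2% against 21.1%. The mean rose from 23.9 ± 6.74 to 74.9 ± 4.74 (SD, n = 4), or 3.13-fold, with a log2 fold change of 1.67 (SE 0.18). Leaving out each library in turn gave 1.49 to 1.80. No exon of any of the 6 genes overlapped an exon of another annotated gene.

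**Figure D1:**
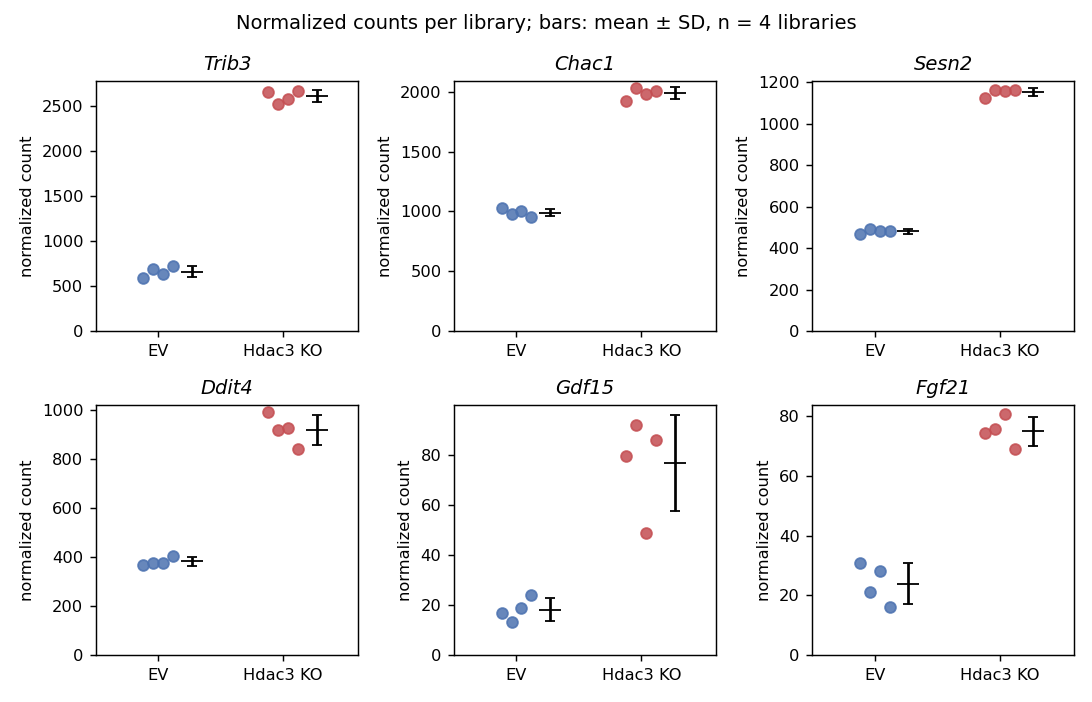
Normalized counts of the 6 members in each library (y axis, linear, from 0) for EV and *Hdac3* KO MCECs (x axis), with points for libraries and bars for the mean ± SD of 4. The groups do not overlap in any panel, and the *Gdf15* libraries of the KO group run from 48.7 to 92.0.

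The hormone genes rose at low levels and the effectors at higher ones. On the FPKM scale, which accounts for gene length, *Chac1* was the highest member in EV MCECs at 32.3 ± 1.06, followed by *Trib3* at 17.5 ± 1.45, *Ddit4* at 12.1 ± 0.50 and *Sesn2* at 7.40 ± 0.15 (SD, n = 4). The hormones followed at 1.38 ± 0.39 for *Fgf21* and 0.63 ± 0.15 for *Gdf15*. Each neighbour in this order was separate from the next in all libraries, the closest being *Fgf21*, lowest at 0.91, and *Gdf15*, highest at 0.82.

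In *Hdac3* KO MCECs *Trib3* took the first place at 63.3 ± 1.55 FPKM, beside 59.7 ± 1.47 for *Chac1*. Their libraries met without overlapping, with the lowest *Trib3* value at 61.5 and the highest *Chac1* value at 61.3 FPKM. The order below them was the same as in EV MCECs, with 26.9 ± 1.85 for *Ddit4*, 16.3 ± 0.26 for *Sesn2*, 3.97 ± 0.26 for *Fgf21* and 2.44 ± 0.61 for *Gdf15*. Of the reads that fell on the 6 genes, the share of *Trib3* went from 25.9% to 38.2% and that of *Chac1* from 38.7% to 29.1%. Both hormones together remained minor, with *Gdf15* at 1.12% and *Fgf21* at 1.10% of these reads in KO libraries.

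**Figure D2:**
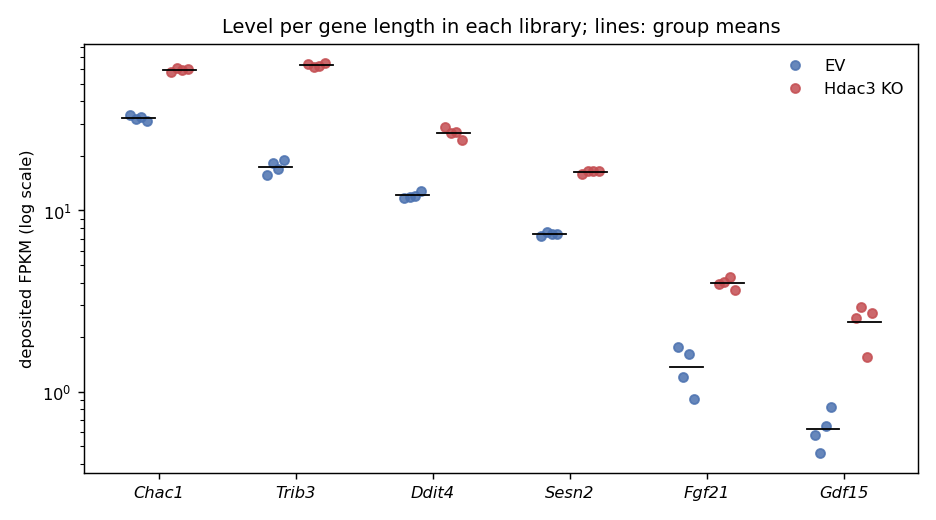
Deposited FPKM of each member (y axis, log scale) in the 4 EV and 4 *Hdac3* KO libraries, ordered by the EV mean, with lines at group means. *Trib3* passes *Chac1* in KO libraries, and *Fgf21* and *Gdf15* stay at or below 4.27 FPKM in every library.

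Within groups, the members had no common pattern from library to library. After the group means were removed, over the 8 libraries, 5 of 15 pairs had a positive correlation, with a median r of -0.14 and a range from -0.94 for *Trib3* and *Fgf21* to 0.70 for *Chac1* and *Fgf21*. Points share library depth, and the hormone genes have few reads, so that these values are a description. The listed gene whose deviations were most like those of *Trib3* was *Slc29a1* (r = 0.96), that of *Chac1* was *Smek1* (0.98), and that of *Sesn2* was *Dph2* (0.97). *Egln2* was nearest to *Ddit4* (0.98), *Snrpa* to *Gdf15* (0.97) and *Pus10* to *Fgf21* (0.98). Each is the highest of 7182 or 7183 genes compared over 8 libraries, so that a high r is no sign of a link. Next in order came *Glud1* and *Mtch1* for *Trib3*, *Rnf13* and *Kdm7a* for *Chac1*, *Nfix* and *Samhd1* for *Sesn2*, *Gpi1* and *Fzd8* for *Ddit4*, *Vps16* and *Slc29a2* for *Gdf15*, and *Mboat1* and *Pigu* for *Fgf21*. These genes went both ways between groups, with log2 fold changes from -0.94 in *Kdm7a* to 0.53 in *Slc29a1*, and no member was among them.

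The relatives of the members went the other way. Of 15 family members looked for, 6 were in the table, and all 6 were lower in *Hdac3* KO MCECs (edgeR adjusted p under the cut-off of 0.01), beside 49.6% of all listed genes. Their median log2 fold change was -0.82, and 2 of the 6 were below -1, beside 8.36% of listed genes. None was higher by edgeR, at an unadjusted p under 0.05 (0 of 6) or with DESeq2 (0 of 6).

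*Trib2*, a pseudokinase like *Trib3*, fell from 109 ± 10.5 to 47.0 ± 7.45 normalized counts (log2 fold change -1.20, SE 0.14, edgeR adjusted p = 1.7e-09). *Trib1* fell from 790 ± 34.5 to 623 ± 34.7 (log2 fold change -0.35, edgeR adjusted p = 1.0e-07). The EV libraries of *Trib2* had 115, 119, 107 and 95.3 normalized counts and the KO libraries 41.9, 56.5, 40.3 and 49.5, so that the groups were apart. The other sestrins fell as well, *Sesn1*, a p53 target, from 768 ± 15.8 to 439 ± 26.5 (log2 fold change -0.81, edgeR adjusted p = 5.0e-16) and *Sesn3* from 350 ± 27.7 to 196 ± 22 (log2 fold change -0.84, edgeR adjusted p = 1.9e-11).

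*Ddit4l*, the paralogue of *Ddit4*, fell from 1789 ± 22.9 to 1258 ± 46.5 (log2 fold change -0.51, edgeR adjusted p = 3.7e-15). *Gdf6*, a growth and differentiation factor of the bone morphogenetic protein branch, fell from 4663 ± 127 to 2312 ± 74.8 (log2 fold change -1.01, edgeR adjusted p = 1.2e-25). In all 6 relatives every KO library was below every EV library, as in 46.6% of all listed genes, and each was lower under all 3 scalings of the libraries that were tried. Of 8 receptors and coreceptors of the hormones 2 were in the table, *Fgfr1* and *Fgfr2*, and both were lower, beside 49.6% of all listed genes. *Gfral*, and *Klb*, which encodes β-Klotho, were not listed, so that nothing can be said of their change. *Fgfr1*, which FGF21 uses with β-Klotho, went from 1093 ± 57.7 to 819 ± 18.0 (log2 fold change -0.42, edgeR adjusted p = 8.2e-11). *Fgfr2* went from 793 ± 47.3 to 270 ± 15.4 (log2 fold change -1.55, edgeR adjusted p = 1.8e-22). Neither was higher by edgeR at an unadjusted p under 0.05 or with DESeq2 (0 of 2 each).

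**Figure D3:**
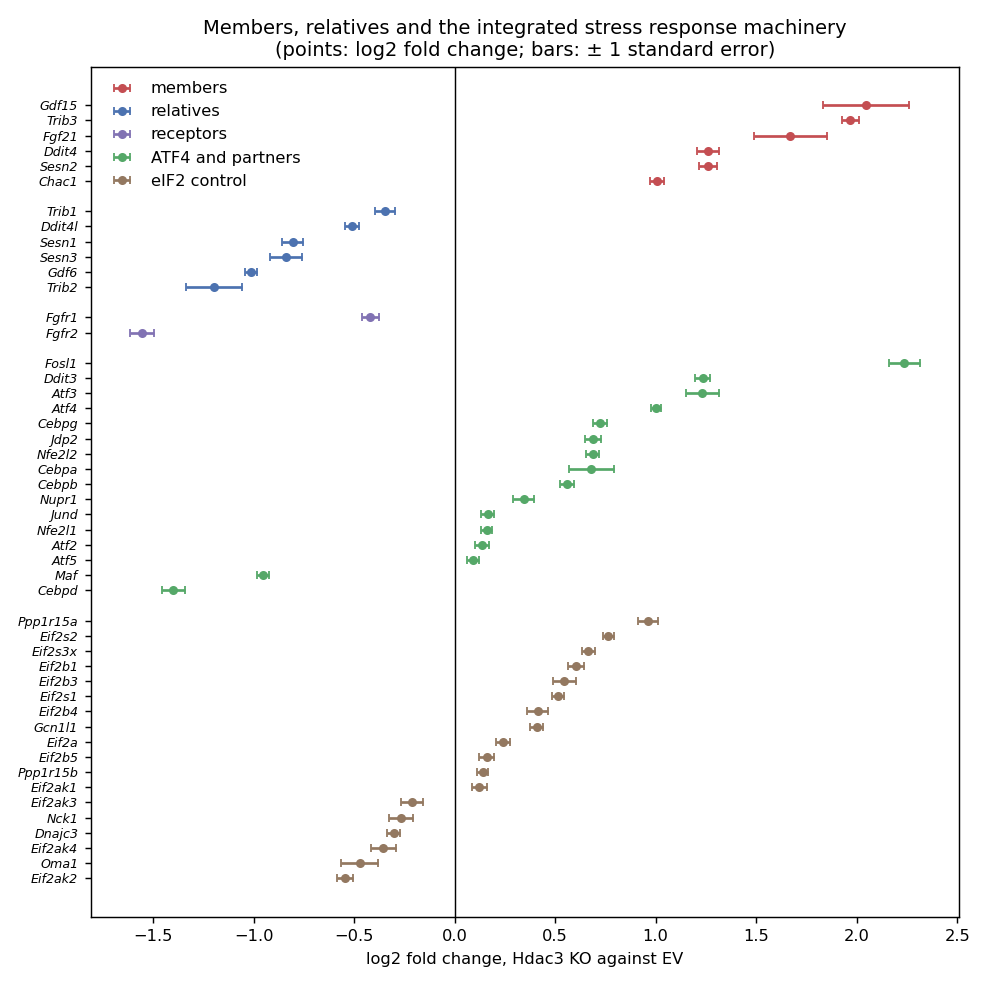
Log2 fold change of *Hdac3* KO against EV MCECs (x axis) with 1 standard error for the 6 members, their listed relatives and receptors, ATF4 with its partners, and eIF2 control genes (y axis). The members lie between 1.01 and 2.05, and the relatives between -1.20 and -0.35.

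Upstream of the members, *Atf4* and *Ddit3* rose, and the eIF2 kinases had log2 fold changes between -0.55 and 0.12. *Atf4* had 5090, 5094, 5187 and 5216 normalized counts in EV libraries and 10213, 10362, 10410 and 10257 in *Hdac3* KO libraries. The groups were far apart, with a log2 fold change of 1.002 (SE 0.025, edgeR adjusted p = 9.4e-28). *Ddit3*, which encodes CHOP, rose from 856 ± 36.7 to 2014 ± 62.5 (log2 fold change 1.23, edgeR adjusted p = 4.6e-25). *Atf3*, a feedback repressor of the same family, rose from 124 ± 5.31 to 292 ± 12.1 (log2 fold change 1.23, edgeR adjusted p = 2.1e-15).

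Of 16 listed genes for ATF4 and its partner factors, 14 were higher and 2 lower, beside 47.1% and 49.6% of all listed genes, and the median log2 fold change was 0.62. Among the C/EBP partners *Cebpg* (0.73), *Cebpa* (0.68) and *Cebpb* (0.56) were higher, while *Cebpd* fell from 706 ± 11.6 to 268 ± 12.4 normalized counts (log2 fold change -1.40, edgeR adjusted p = 9.3e-22). The AP-1 gene *Fosl1* rose most, from 116 ± 11.7 to 551 ± 32.1 (log2 fold change 2.24, edgeR adjusted p = 1.2e-23). *Nfe2l2*, which encodes NRF2, was higher with a log2 fold change of 0.69, as were *Jdp2* (0.69), *Nupr1* (0.34), *Jund* (0.16), *Nfe2l1* (0.16) and *Atf2* (0.14). *Maf* was lower (-0.95). *Atf5*, another translationally controlled factor, passed the cut-off at a log2 fold change of 0.09, which became -0.03 when libraries were scaled by their totals alone. That scaling left 10 of the 14 higher, with the calls of *Jund*, *Nfe2l1* and *Atf2* lost as well (edgeR adjusted p = 0.16, 0.13 and 0.59).

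Among 18 listed genes of eIF2 control, 12 were higher and 6 lower, beside 47.1% and 49.6% of all listed genes. None had an absolute log2 fold change over 1, and the median was 0.20. *Ppp1r15a*, the stress-induced subunit GADD34 of the eIF2 phosphatase, rose most, from 447 ± 19.7 to 873 ± 32.4 normalized counts (log2 fold change 0.96, edgeR adjusted p = 1.3e-18). Its constitutive counterpart *Ppp1r15b* had a log2 fold change of 0.14. Of the 4 kinases 3 were lower, *Eif2ak2* (PKR) at -0.55, *Eif2ak4* (GCN2) at -0.36 and *Eif2ak3* (PERK) at -0.21, and *Eif2ak1* (HRI), whose libraries overlapped between groups, was higher at 0.12. With library totals alone 9 genes of eIF2 control were higher, the calls of *Eif2ak1*, *Eif2b5* and *Ppp1r15b* being lost (edgeR adjusted p = 0.88, 0.32 and 0.45). *Gcn1l1*, which assists GCN2, was higher at 0.41.

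The subunits of eIF2 itself were higher (*Eif2s2* 0.77, *Eif2s3x* 0.67 and *Eif2s1* 0.51), as were those of its exchange factor (*Eif2b1* 0.60, *Eif2b3* 0.54, *Eif2b4* 0.41 and *Eif2b5* 0.16) and *Eif2a* (0.24). *Oma1*, the protease that relays mitochondrial stress, was lower at -0.47, as were *Dnajc3* (-0.30), an inhibitor of the kinases, and *Nck1* (-0.27), whose libraries overlapped between groups. The kinases are controlled as proteins, and RNA levels say nothing of their activity.

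The amino acid genes that ATF4 is known to activate all moved with the members. All 33 that were listed were higher in *Hdac3* KO MCECs, beside 47.1% of all listed genes, and in all 33 every KO library was above every EV library, beside 44.4%. Their median log2 fold change was 0.86. None was lower by edgeR at an unadjusted p under 0.05 or with DESeq2 (0 of 33 each). *Cth*, which makes cysteine from cystathionine, rose from 66.4 ± 13.9 to 341 ± 3.11 normalized counts (log2 fold change 2.35, edgeR adjusted p = 5.4e-21). *Slc7a11*, the cystine transporter gene with 2 CARE matches above, rose from 213 ± 13.4 to 547 ± 28.4 (log2 fold change 1.37, edgeR adjusted p = 1.9e-19). The smallest changes were those of *Got1*, an aspartate aminotransferase (0.38), and *Mars*, a transfer RNA synthetase (0.40).

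Of 20 other listed genes activated by ATF4 or CHOP, 15 were higher and 5 lower, beside 47.1% and 49.6% of all listed genes, with a median of 0.74. *Ero1l*, an oxidase of the endoplasmic reticulum (ER), rose from 940 ± 41.2 to 3994 ± 54.6 (log2 fold change 2.09, edgeR adjusted p = 3.6e-33). *Cdkn1a*, the cell cycle inhibitor p21, rose from 1280 ± 36.5 to 4422 ± 42.9 (log2 fold change 1.79, edgeR adjusted p = 1.9e-32). The autophagy gene *Gabarapl1* and the pro-apoptotic gene *Bcl2l11* were lower, at -0.56 and -0.54. The counts of this list, like those of the next ones, hold genes that several factors control.

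**Figure D4:**
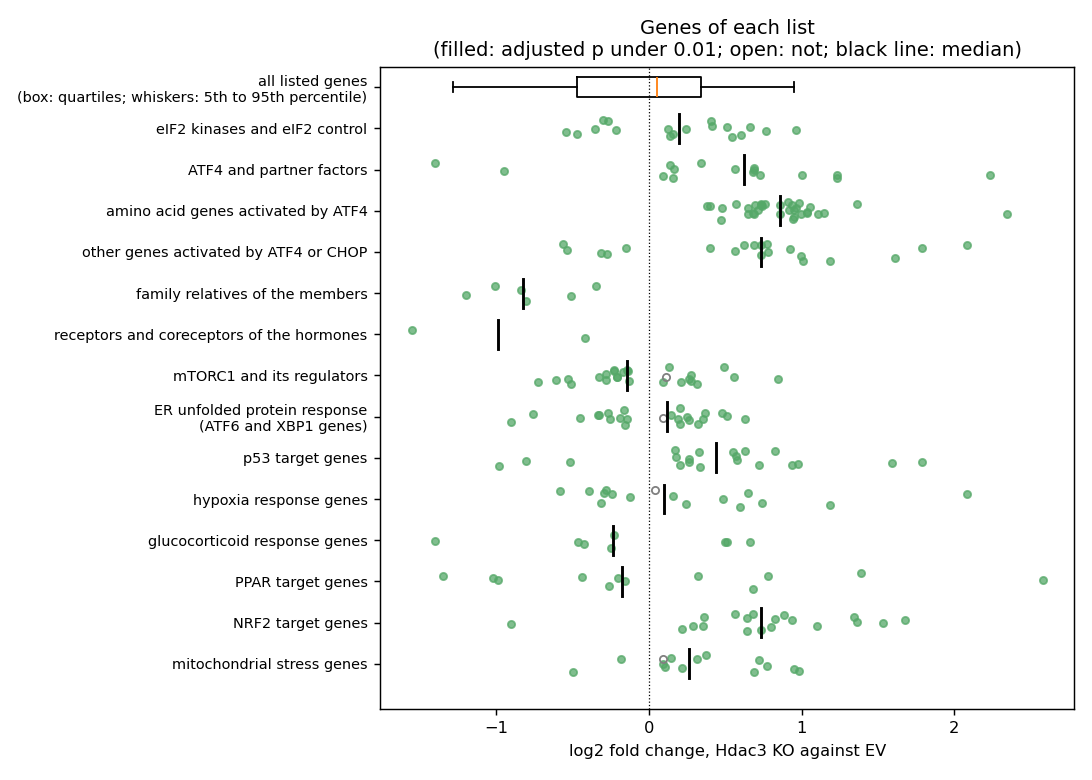
Log2 fold change (x axis) of each listed gene of 14 pathway lists (rows), filled where the edgeR adjusted p was under 0.01, with a black line at the list's median and a box for all 8278 listed genes. The amino acid genes lie wholly above 0 with a median of 0.86, and the mTORC1 genes lie around a median of -0.14.

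Several other pathways are known to reach some of the 6 genes, and lists for these and for related pathways were described in the same fit. For the p53 targets, a family to which *Sesn2* and *Gdf15* also belong, 17 of 20 listed genes were higher and 3 lower, beside 47.1% and 49.6% of all listed genes, with a median of 0.44. With library totals alone 13 were higher, the calls of *Gadd45a*, *Ckap2*, *Polk* and *Ephx1* being lost. *Plk2*, a kinase gene, rose from 1389 ± 42.1 to 4193 ± 155 (log2 fold change 1.59, edgeR adjusted p = 4.1e-30), beside *Cdkn1a* above. *Tap1*, a peptide transporter, and *Sesn1* were lower (-0.98 and -0.81). For the NRF2 targets, 18 of 19 were higher and 1 lower, beside the same background of 47.1% and 49.6%, with a median of 0.73. The quinone reductase gene *Nqo1* rose from 72.7 ± 15.3 to 229 ± 14.1 (log2 fold change 1.68, edgeR adjusted p = 1.9e-15) and *Osgin1* from 239 ± 22.8 to 698 ± 42.3 (1.54, edgeR adjusted p = 4.4e-21), and *Gsta4*, a glutathione transferase, was lower (-0.91).

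The genes of the ER unfolded protein response were the sensors, factors, chaperones and degradation genes of the ATF6 and XBP1 branches. Of 24 listed, 12 were higher, 11 lower and 1 not past the cut-off. These counts were near the shares over all listed genes, 47.1% higher and 49.6% lower. None had an absolute log2 fold change over 1. *Ern1*, the stress sensor IRE1, and *Ssr1* were the highest (0.63 and 0.51), and *Crebrf* and *Os9* the lowest (-0.90 and -0.76). The mTORC1 genes, on whose pathway *Sesn2* and *Ddit4* act, had a median of -0.14. Of 26 listed, 10 were higher, 15 lower and 1 not past the cut-off, beside the same 47.1% and 49.6% of all listed genes. *Rragc*, a GTPase that recruits mTORC1 to the lysosome, was higher at 0.49, and *Seh1l* at 0.31. *Prkab2*, a subunit of AMP-activated kinase, and *Txnip* were lower at -0.73 and -0.61. The number of higher mTORC1 genes was 6 without KO replicate 2, and also 6 with library totals alone. Under that scaling 2671 of the 8278 listed genes were higher.

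The hypoxia genes, of which *Ddit4* is one, had 8 of 16 higher, 7 lower and 1 not past the cut-off. These counts were near the shares over all listed genes, 47.1% higher and 49.6% lower. *Ero1l* was the highest of them, followed by *Vegfa*, an angiogenic factor (1.19), and *Mxi1* and *Pdk1* were the lowest (-0.58 and -0.39). Of 8 glucocorticoid response genes, a list to which *Ddit4* also belongs, 3 were higher and 5 lower. Beside the same 47.1% and 49.6% of all listed genes, this list had a median of -0.24. The phosphatase gene *Dusp1* and *Fkbp5* were higher (0.66 and 0.51), and *Cebpd* and *Tsc22d3*, which encodes GILZ, lower (-1.40 and -0.47).

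For the PPAR targets, among which *Fgf21* is known in liver, 5 of 12 were higher and 7 lower, with a median of -0.18. Over all listed genes 47.1% were higher and 49.6% lower. The thioesterase gene *Acot2* and the lipid droplet gene *Plin2* were higher (1.39 and 0.78), and *Rxra*, the partner receptor, and *Acot1* lower (-1.02 and -0.44). *Acot1* and *Acot2* are near-identical neighbours, between which the counting of reads can be uncertain. Of 14 mitochondrial stress genes 11 were higher, 2 lower and 1 not past the cut-off, beside the same 47.1% and 49.6%. Their median was 0.26. With library totals alone 7 of them were higher, beside 2671 of the 8278 listed genes. The mitochondrial chaperones *Hspd1* and *Hspa9* were the highest (0.99 and 0.95), and *Spg7* and *Ubl5* the lowest (-0.50 and -0.18).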

How the data were processed

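RNA-Seq of MCECs was analysed, with 4 *Hdac3* KO and 4 EV libraries. The study speaks of technical replicates in its in vitro work and elsewhere of biological replicates, without saying whether these libraries came from separate cultures, so that p-values measure only the spread between these samples, which may be technical. The authors aligned reads to mm10 with tophat2 and bowtie2. Submitters' processing notes name CASAVA and DESeq 1.6.3, and the methods name the cufflinks suite for differential expression, DESeq2, and the lumi package for normalization and the count matrix. No step that assigned reads to genes is described further in the sources used here. The deposited counts are unnormalized reads for each gene and the deposited FPKM are the authors' own, made from count, gene length and library total. The authors' fold changes and p-values were not used, except that all 8278 genes of the table carry adjusted p-values, deposited by the authors, under 0.05. Counts and shares of genes therefore describe listed genes, not the transcriptome. The authors' group means were not used.

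Library totals (15775327 to 22255684 reads) were recovered from count, length and FPKM, and scaled by TMM factors in edgeR 4.0.16 (R 4.3.3, limma 3.58.1). TMM assumes that most genes are unchanged, whereas the listed genes had all been selected as changed. The factors were 1.038 to 1.046 in EV and 0.957 to 0.962 in *Hdac3* KO libraries, so that small log2 fold changes depend on the scaling. The quasi-likelihood test was run on all 8278 genes with Benjamini-Hochberg adjustment and a cut-off of 0.01. These genes had already been selected on the same contrast in the same libraries. Most therefore pass again, and the adjusted p-values do not carry their usual error rate. Standard errors (SE) were back-calculated as the absolute log2 fold change divided by the square root of the quasi-likelihood F statistic. The common biological coefficient of variation was 2.82%. Reads carry no molecular identifiers, so that intervals cover counting error only. The members and the 14 gene lists (312 names, 224 in the table) were chosen with earlier results of these data known. Named are the members, *Hdac3*, all listed genes for eIF2 control, ATF4 partners, relatives and receptors, the 2 highest and 2 lowest called genes of the other lists with a mean of at least 100 in the higher group, and the 3 genes most like each member (pseudocount 1). Names for the CARE matches, the 4 p53 genes whose call was lost, *Pecam1*, *Kdr*, *Tek*, *Flt1*, *Cd34*, *Eng*, *Col1a1*, *Dcn*, *Pdgfra* and *Cd68* were chosen after their values were seen. Exon structure is from GENCODE and promoters from RefSeq (GRCm38.p6). The sequence of a further matching site is not reported here. Replicate numbers are those of the titles, and no source pairs them. Alternatives were DESeq2 1.42.0, its size factors, library totals alone, a replicate block, each library left out, at least 10 counts in 4 libraries, cut-offs of 0.05 or a log2 fold change of 1, adjustment over 30000 genes, and FPKM with pseudocounts of 0.01, 0.1 and 1. Python 3.11.15 and matplotlib 3.10.9 were used for figures.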

Additional observations from a re-analysis of the deposited data

Results flagged for a closer look

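A far library was looked for in the members, *Hdac3*, and the listed genes of eIF2 control, ATF4 partners, relatives and receptors. The highest and lowest called genes of the other lists, chosen as above, were included, and other named genes were not. Among 164 groups of 4 libraries, 10 had 1 library far from the other 3, and chance gives about 1 in 20, or 8.2. None of the 6 members was among them. In *Hdac3* KO MCECs *Ddit3* had 2108 normalized counts in replicate 3 beside 1978 to 1992 in the others, and *Plk2* had 4425 in replicate 4 beside 4096 to 4135. KO replicate 2 stood apart in 3 genes, with 3110 for *Eif2s3x* (others 3336 to 3370), 2010 for *Eif2a* (1922 to 1923) and 3249 for *Nfe2l2* (3434 to 3456). In EV MCECs *Plin2* had 2890 normalized counts in replicate 2 (others 3107 to 3140) and *Cebpg* 1168 in the same library (1100 to 1106). EV replicate 3 had 2210 for *Spg7* (2026 to 2057) and 3156 for *Eif2s1* (3326 to 3336), and EV replicate 4 had 1593 for *Ubl5* (1430 to 1453).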

How the results depend on the processing

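The 6 members were higher in *Hdac3* KO MCECs under all 15 alternatives run for each, and none of their log2 fold changes changed sign. Leaving out each library gave log2 fold changes of 1.92 to 2.02 for *Trib3*, 0.99 to 1.03 for *Chac1*, 1.25 to 1.28 for *Sesn2*, 1.23 to 1.31 for *Ddit4*, 1.93 to 2.23 for *Gdf15* and 1.49 to 1.80 for *Fgf21*. Scaling by library totals alone moved the median of all listed genes by -0.12 and turned the sign of 321 listed genes, among them *Atf5*, *Flcn*, *Prkab1*, *Creld2*, *P4ha1*, *Trap1* and *Htra2* of the lists. *Trib3* was then 1.85, *Chac1* 0.89, *Sesn2* 1.14 and *Ddit4* 1.14, and higher calls were 6 for mTORC1 genes and 7 for mitochondrial stress genes. Higher and lower calls also turned from 12 and 11 to 9 and 11 for ER genes and from 8 and 7 to 7 and 8 for hypoxia genes, and were 2671 and 4120 over all listed genes. FPKM, which are scaled in the same way, gave for these 4 genes 1.86, 0.89, 1.14 and 1.15 with a pseudocount of 0.01 and 1.86, 0.88, 1.13 and 1.14 with 0.1. A pseudocount of 1 gave 1.80, 0.87, 1.05 and 1.09, and lowered the hormones with few reads to 1.07 for *Gdf15* and 1.08 for *Fgf21*.

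With an absolute log2 fold change over 1, calls numbered 367 higher and 692 lower over all listed genes. By list, higher and lower calls were then 4 and 1 for ATF4 partners, 7 and 0 for amino acid genes, 5 and 0 for other ATF4 or CHOP genes, 2 and 0 for p53 genes, 2 and 0 for hypoxia genes, 0 and 1 for glucocorticoid genes, 2 and 2 for PPAR genes and 5 and 0 for NRF2 genes. Relatives had 2 lower calls and receptors 1, and eIF2 control, mTORC1, ER and mitochondrial stress genes had 0 in both directions. Leaving out each library gave 3634 to 3806 higher and 3955 to 4024 lower calls over all listed genes and 6 to 9 higher calls for mTORC1 genes, with 6 when KO replicate 2 was left out. All other lists stayed within 1.5 times their count under every left-out library.

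Same-numbered libraries deviated with a mean correlation of -0.02 (-0.11 to 0.12), beside 0.007 for other pairs of an EV and a KO library. No pairing by number was seen, but so few libraries cannot exclude one. When a replicate block was fitted, 3866 genes were higher and 4106 lower, the log2 fold change was 1.97 for *Trib3* and 2.05 for *Gdf15*, and higher calls were 8 for mTORC1 genes. The cause of these shifts was not tested. The 12 to 27 reads of *Gdf15* and *Fgf21* in each EV library limit how precisely their fold changes can be given.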
